A study of Mus musculus with 2 samples.

Results

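RAB GTPases are small switches that give intracellular membranes their identity. Bound to GTP, each sits on its own compartment and recruits tethers, motors and coats, and bound to GDP it is extracted into the cytosol by a GDI chaperone. In macrophages they steer engulfed particles from early to late endosomes and lysosomes, return receptors to the surface, and move secretory vesicles, and several, such as Rab27a, Rab27b, Rab35, Rab11 and Rab7, are known from work on exosome release. The RAB genes described here are the rows of the deposited gene table whose symbol is Rab followed by a number and, in some, a letter a to d or the suffix l1. They number 47 of the 11349 listed genes. Members were picked by name alone, but the family was chosen with earlier results of these data known.

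The values come from RNA sequencing of primary mouse macrophages of the abdominal cavity, 1 library from wild-type (WT) cells and 1 from cells that the sample title marks as TREM-2-/- and the genotype label as a knockdown. Trem2 is a lipid-sensing receptor of macrophages, and the series title speaks of exosomes from such macrophages and of renal fibrosis. Both cultures had received TGF-β1 for 24 h, so no untreated cells enter the comparison. The labels give neither the age nor the number of the animals nor how the Trem2 allele was made, and the WT column is headed C57. Each genotype has 1 library, so differences carry neither replicate check nor test, and the values describe these 2 libraries. Values are FPKM, fragments scaled for gene length and library size, from an estimated 13.5 M fragments in the WT library and 12.4 M in the knockout library. Among the RAB genes with a matched length, a median of 492 fragments per gene stood behind the WT value and 307 behind the knockout value. The 95% intervals given with ratios between libraries follow Clopper and Pearson. They treat the deposited scaling as exact and reflect counting error alone. The targeted gene, Trem2, had 135 FPKM (WT) and 13.7 FPKM (knockout), 9.91-fold lower.

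The macrophage label was checked against its markers. Of 12 macrophage markers 11 were listed, with a summed level of 10591 FPKM (WT) and 13195 FPKM (knockout), and Timd4 was not listed. The sum is carried by Lyz2, at 7962 and 10171 FPKM, while the median log2 fold change (defined below) of the 11 was -0.62. By that measure 4 of the 11 were lower in the knockout by 2-fold or more, where 13.7% of all genes were. They were Gata6, a regulator of resident peritoneal macrophages, Fcgr1, Itgam and Icam2. Mertk and Cd14 were lower by less than 2-fold. The other 5 were higher, where 31.8% of all genes were. They were Lyz2, Cd68, Tyrobp, Adgre1 (133 and 148 FPKM) and Csf1r (46.1 and 53.1 FPKM). Markers of other cells were lower in sum and moved between the libraries. The 8 listed of 10 fibroblast markers summed to 237 FPKM (WT) and 408 FPKM (knockout), with Fap and Postn not listed. Of the 8, 6 were higher, with a median log2 fold change of 0.56 over the 8. They were the collagens Col1a1, Col1a2 and Col3a1, with Lum, Pdgfrb and Thy1, the last at 0.336 and 3.80 FPKM. Pdgfra, 4.88-fold, and Dcn, at 71.4 and 48.9 FPKM, were lower. The 3 listed of 9 mast cell markers summed to 10.9 and 2.67 FPKM, with Kit and Ms4a2 not listed. The 7 mesothelial markers, all listed, summed to 17.1 and 4.79 FPKM, the 5 of 8 neutrophil markers to 54.5 and 27.0 FPKM, and the 2 of 6 endothelial markers to 5.92 and 1.41 FPKM. The 6 of 12 lymphocyte markers summed to 169 and 97.8 FPKM, most of it from Il7r, at 158 and 84.7 FPKM. Of the 4 averaging at least 1 FPKM across the libraries, 2 were higher (Cd22 and Lck) and 2 lower (Il7r and Cd28). The 2 of 7 dendritic cell markers summed to 12.2 and 12.5 FPKM. Fewer cells of a type and less RNA per cell cannot be told apart in such bulk values, and the part of other cells in the differences below was not tested.

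As a family the RAB genes lay where the whole table lay. Summed over the 47 members, RAB expression was 1417 FPKM (WT) and 1158 FPKM (knockout), 0.469% and 0.342% of all listed FPKM. Of the members 40 averaged at least 1 FPKM across the libraries and were compared by fold change, taken as log2((knockout FPKM + 1)/(WT FPKM + 1)), a scale that understates the change of low genes. Their median log2 fold change was -0.31 and that of all 9962 genes above the same limit was -0.31. By this measure 3 of the 40 were lower in the knockout by 2-fold or more, against 13.7% of all genes, and 0 were at least 2-fold higher, against 3.48% of all genes. With the all-gene median subtracted 3 were lower and 2 higher, against 6.57% and 7.66% of all genes. With no pseudocount, 5 of the 40 were lower by 2-fold or more, against 21.7% of all genes. With it, 25 of the 40 lay within 1.5-fold, or 62.5%, against 57.3% of all genes. Among the 33 members averaging 5 FPKM or more, 3 were lower and 0 higher, against 12.7% and 4.18% of all genes at that level. All these shares are close to the background or below it.

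**Figure D1:**
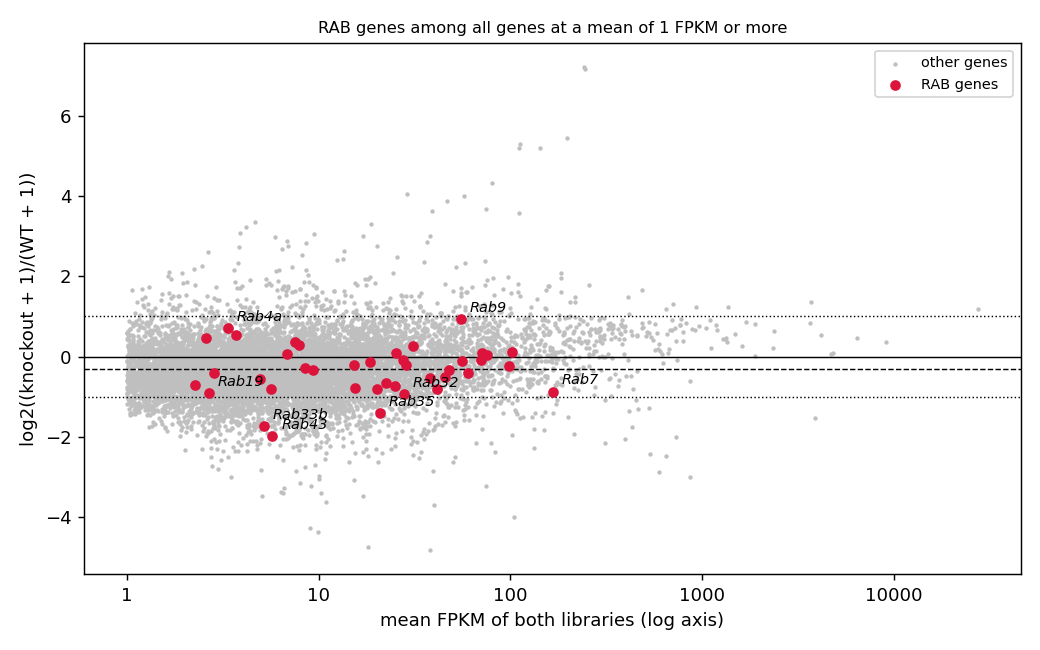
Each point is a gene averaging at least 1 FPKM. The horizontal axis is the mean FPKM of both libraries on a log axis and the vertical axis the log2 fold change, knockout over WT, with a pseudocount of 1 FPKM. The 40 RAB genes (red) run from -1.98 for Rab43 to 0.93 for Rab9 and follow the dashed line at the median of all genes, -0.31, and dotted lines mark 2-fold.

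The order of the members by level was similar in both libraries. Rab7 was the highest RAB gene in both libraries, and the 5 highest members made up 39.9% of the summed RAB FPKM in WT and 40.1% in the knockout. Across the 47 members the log2(FPKM + 1) levels of the libraries had a Pearson r of 0.96 and a Spearman correlation of 0.95, a description of 1 pair of libraries. As deposited, 28 of the 40 members (70.0%) were lower in the knockout and 12 higher, where 68.2% of all genes were lower. Under all 4 scalings tried 20 of the 40 were lower and 7 (17.5%) higher, against 52.3% and 24.8% of all genes. The direction of the other 13 (32.5%) depends on the scaling between libraries, against 22.9% of all genes. The 7 were Rab3a, Rab4a, Rab5b, Rab6b, Rab9, Rab13 and Rab34.

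**Figure D2:**
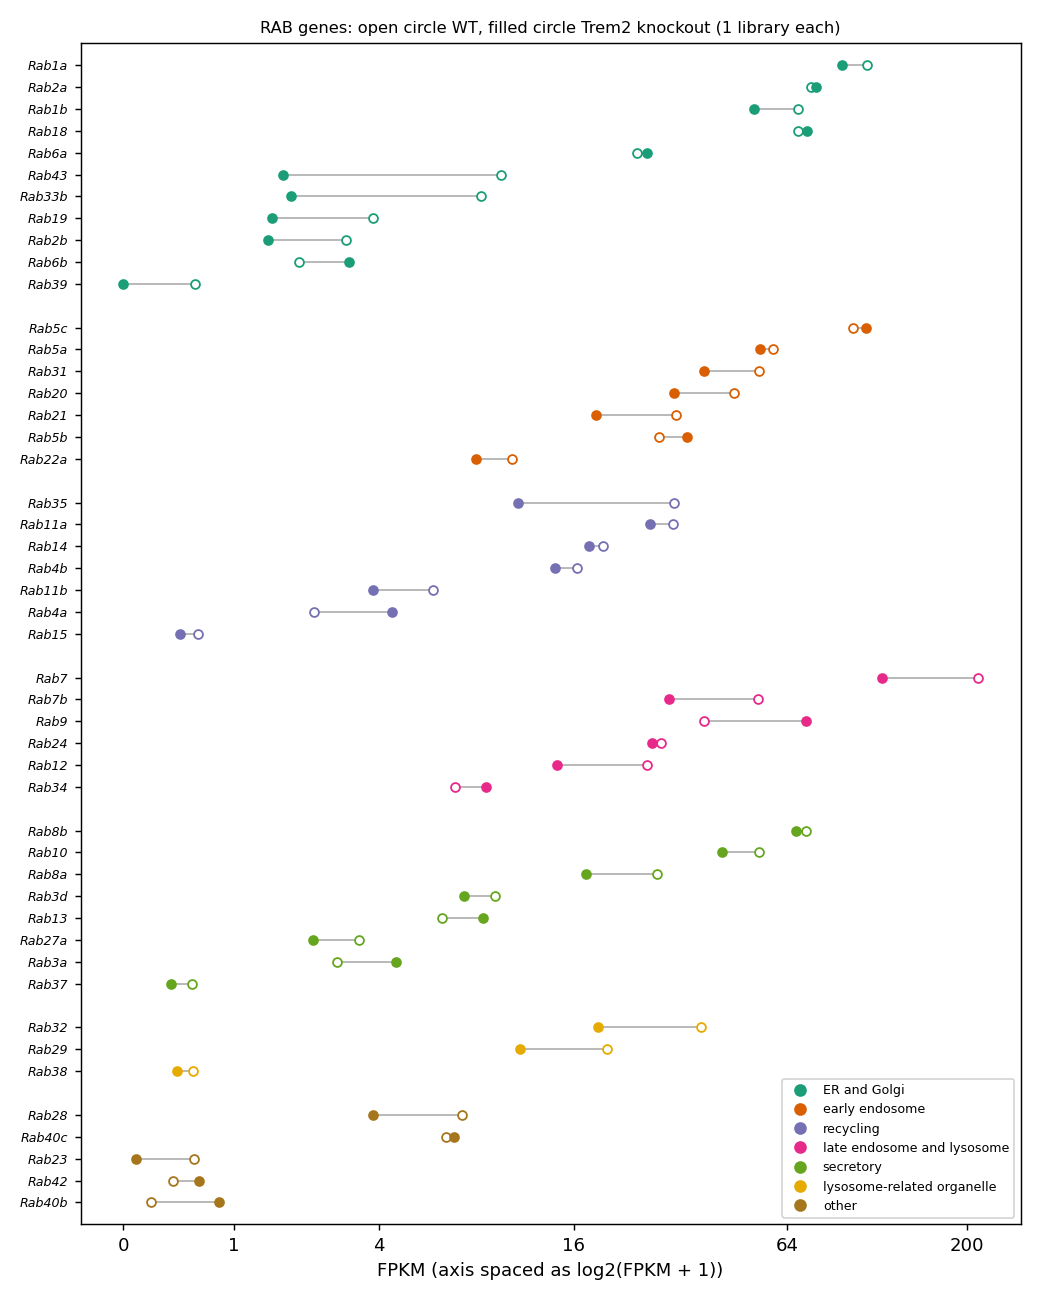
FPKM of all 47 RAB genes by compartment, WT as open and knockout as filled circles, 1 library each, on an axis spaced as log2(FPKM + 1). The longest lines in the upper block belong to Rab43 and Rab33b, and in the late endosomal block Rab7 and Rab9 run in opposite directions.

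The 3 members at least 2-fold lower were Rab43, Rab33b and Rab35. Rab43, which acts at the Golgi and on phagosomes, was at 9.73 FPKM (WT) and 1.73 FPKM (knockout), 5.64-fold lower (interval 4.65 to 6.93). Its exons are shared over 75.4% of their length with an annotated gene on the same strand, Gm45140, which is not among the listed genes. The reads of the 2 genes could be divided between them, so the value is uncertain. Rab33b, a Golgi RAB that binds the autophagy protein ATG16L1, was at 8.48 and 1.87 FPKM, 4.53-fold lower (interval 3.58 to 5.84). A transcribed region on the opposite strand, Gm38160, covers 18.7% of its exon length. Rab35, which returns cargo from early endosomes to the plasma membrane and is known from exosome release, was at 30.8 and 11.0 FPKM, 2.81-fold lower (interval 2.50 to 3.16), and no annotated gene overlaps its exons. It was the single member with a mean of 10 FPKM or more that passed 2-fold, of 25, where 11.4% of all genes at that level were as low. At a mean of 1 to 10 FPKM 2 of 15 passed, against 15.1% of all genes.

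The member furthest in the other direction was Rab9, which returns mannose 6-phosphate receptors from late endosomes to the Golgi. It was at 37.5 FPKM (WT) and 72.4 FPKM (knockout), 1.93-fold higher (interval 1.78 to 2.10). Its log2 fold change was 0.93, short of 2-fold, and 1.24 after subtracting the all-gene median. Rab4a, a RAB of rapid receptor recycling, was the other member that passed 2-fold on that relative scale, at 1.006, from 2.33 and 4.41 FPKM (interval of the ratio 1.35 to 2.69). It fell short of 2-fold as deposited, at 0.70. The same held with the median of ratios set to 1, at 0.967, and with the trimmed mean log ratio zeroed, at 0.969.

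The upstream sequences of Rab43, Rab7 and Rab9 are shown because these are the RAB genes with the lowest fold change, the highest level and the highest fold change, and because their RefSeq start is the start of the deposited gene. Each is the 250 bases before the start, 5′ to 3′ on the strand of the gene, from RefSeq on GRCm38.p6, at chr6:87812165-87812414 on the - strand, chr6:88045271-88045520 on the - strand and chrX:166479868-166480117 on the - strand. Capitals mark matches, on either strand, to short motifs. An E-box was searched as the letters CACGTG, which is the same on both strands. The box known from many basal promoters was searched as CCAAT in either direction. The TATA box, which positions the start of transcription, was searched as TATAAA on both strands. The GC box, bound by SP1 and its relatives, was searched as the letters GGGCGG on both strands. The core bound by PU.1, a myeloid transcription factor, was searched as GAGGAA on both strands.
Rab43: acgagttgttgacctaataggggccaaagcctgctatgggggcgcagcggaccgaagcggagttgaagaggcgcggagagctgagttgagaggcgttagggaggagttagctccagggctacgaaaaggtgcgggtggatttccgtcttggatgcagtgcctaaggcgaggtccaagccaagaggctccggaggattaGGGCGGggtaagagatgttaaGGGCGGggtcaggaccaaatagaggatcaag
Rab7: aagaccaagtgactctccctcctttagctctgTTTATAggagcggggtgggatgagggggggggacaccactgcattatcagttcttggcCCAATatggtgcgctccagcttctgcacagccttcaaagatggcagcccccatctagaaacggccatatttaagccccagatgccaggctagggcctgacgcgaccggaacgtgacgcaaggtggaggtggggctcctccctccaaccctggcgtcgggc
Rab9: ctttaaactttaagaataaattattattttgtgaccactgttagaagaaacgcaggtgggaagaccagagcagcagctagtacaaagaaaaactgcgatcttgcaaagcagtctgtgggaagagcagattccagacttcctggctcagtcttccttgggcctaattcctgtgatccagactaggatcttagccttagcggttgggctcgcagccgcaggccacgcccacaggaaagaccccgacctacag
The Rab43 window holds the letters of the GC box 2 times, and the Rab7 window those of the CCAAT box and the TATA box 1 time each. The TATA match of Rab7 reads TTTATA, so it is on the opposite strand, and it lies in the part of the window far from the start. In the Rab9 window none of the 5 motifs occurs, and it has 48.8% G and C and 7 CpG, where the Rab43 window has 58.0% and 15 and the Rab7 window 59.2% and 10. Over 8887 listed genes with such a window, the GC box was present in 60.8%, the CCAAT box in 36.9%, the PU.1 core in 22.6%, the E-box in 8.79% and the TATA box in 6.08%. Among the 41 RAB genes with a window the shares were 73.2%, 48.8%, 14.6%, 9.76% and 4.88%. A match describes the letters only.

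Early endosomal members included the 3 Rab5 genes, whose products drive the fusion of incoming vesicles. Rab5c was at 97.7 FPKM (WT) and 106 FPKM (knockout). Rab5a was at 58.5 and 53.9 FPKM, and Rab5b at 28.0 and 33.7 FPKM. The order Rab5c, Rab5a, Rab5b was the same in both libraries, and the widest difference of the 3 was 1.20-fold, for Rab5b. The other 4 were all lower in the knockout, where 68.2% of all genes were lower. Rab21, which carries integrins, was at 31.3 and 18.6 FPKM, 1.68-fold lower (interval 1.57 to 1.81). Rab20, a RAB of maturing phagosomes, was at 45.5 and 31.0 FPKM, and Rab31, which moves cargo between the Golgi and endosomes, at 53.5 and 37.5 FPKM. Rab22a, a close relative of Rab31, was at 10.5 and 8.20 FPKM, a log2 fold change of -0.018 after subtracting the all-gene median. The median log2 fold change of the 7 was -0.32, with 0 past 2-fold.

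Late endosomal members moved apart. Rab7, which brings late endosomes and phagosomes to lysosomes, was at 215 FPKM (WT) and 117 FPKM (knockout), 1.83-fold lower (interval 1.76 to 1.91). Rab7b, a separate gene named for its likeness to Rab7 and active between late endosomes and the Golgi, was at 53.2 and 29.96 FPKM, 1.78-fold lower (interval 1.68 to 1.88). Rab12, which sends receptors to lysosomes, was at 25.9 and 14.3 FPKM, 1.82-fold lower. These 3 fell short of 2-fold by a similar margin, while Rab9 stood opposite. Rab24, a RAB linked to autophagy, was at 28.5 and 26.8 FPKM, with 62.4% of its exon length overlapped by Prelid1 on the opposite strand, a gene at 95.2 and 86.8 FPKM. Rab34, which positions lysosomes, was at 7.04 and 8.78 FPKM. The median of the 6 was -0.45, and they spanned -0.87 to 0.93.

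Ratios between genes inside a library do not depend on the scaling between libraries. Rab7 was 5.73 times the level of Rab9 in WT and 1.62 times in the knockout, a ratio 3.54-fold smaller (exact conditional 95% interval from estimated fragments 3.23 to 3.88, counting error only). The ratio of Rab7 to Rab5c, from the late to the early endosome, went from 2.20 to 1.10, 1.99-fold smaller (interval 1.87 to 2.13). The ratio of Rab7 to Rab7b was 4.03 in WT and 3.91 in the knockout, and its interval of 0.962 to 1.11 includes no change. So Rab7 and Rab7b kept their proportion within counting error, and Rab7 and Rab9 did not. These pairs were chosen after their values were seen.

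**Figure D3:**
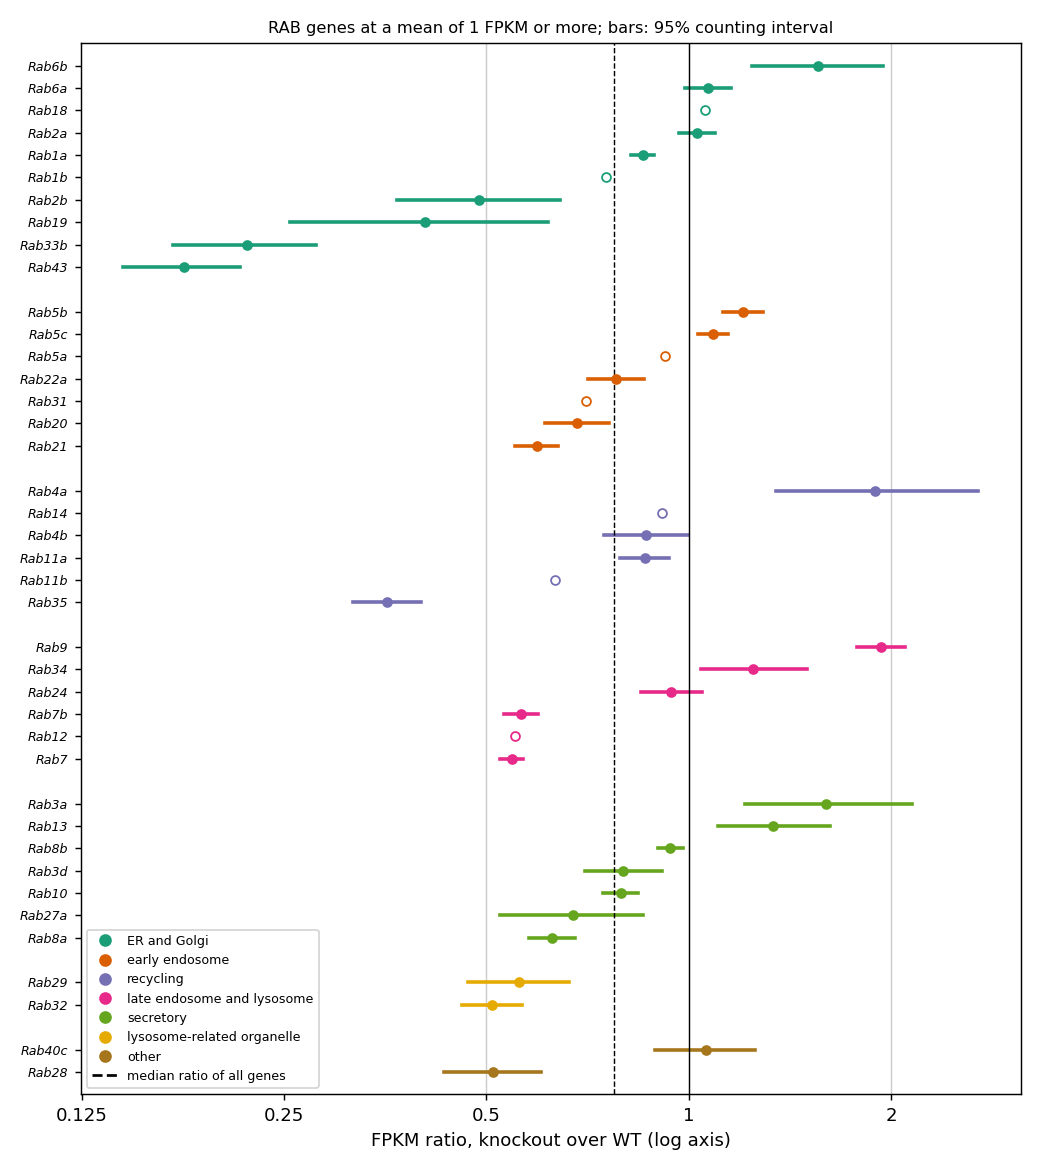
FPKM ratio of knockout over WT on a log axis for the 40 RAB genes averaging at least 1 FPKM, grouped by compartment. Bars are 95% counting intervals, open circles have no interval because no exon length was matched, the dashed line is the median ratio of all genes (0.773) and grey lines mark 2-fold. Of 33 members with an interval 21 lie below 1 (63.6%), 8 above it (24.2%) and 4 include it (12.1%), where 57.9%, 23.0% and 19.1% of the 8668 genes with an interval do.

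Recycling members went in both directions, with Rab35 lower and Rab4a higher as given above. Rab11a, the main RAB of the recycling endosome, was at 30.7 FPKM (WT) and 26.4 FPKM (knockout). Rab11b was at 6.03 and 3.82 FPKM. Rab14, which links the Golgi and early endosomes, was at 19.4 and 17.7 FPKM. Rab4b was at 16.3 and 14.1 FPKM, and its value is uncertain because the annotated gene Gm21983 shares 65.0% of its exon length on the same strand. Gm21983 is not among the listed genes. Rab11a and Rab35 were level in WT, with a ratio of 0.996, and in the knockout Rab11a was 2.41 times Rab35 (interval of the change in ratio 2.09 to 2.79). That change restates the lower value of Rab35 and is no separate result. Rab15, which slows recycling, lay under the limit at 0.603 and 0.431 FPKM. The median of the 6 above the limit was -0.20.

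Secretory members were within 2-fold throughout. Rab8b was at 72.2 FPKM (WT) and 67.8 FPKM (knockout), and its paralog Rab8a, which like it carries vesicles from the Golgi and recycling endosomes to the surface, at 27.7 and 17.3 FPKM. The ratio of Rab8b to Rab8a was 2.61 in WT and 3.91 in the knockout, 1.498-fold larger (interval 1.37 to 1.64). Rab10, active in exocytosis and in recycling, was at 53.4 and 42.3 FPKM. Rab27a, which docks secretory lysosomes and exosome-bearing endosomes at the plasma membrane, was at 3.40 and 2.29 FPKM, 1.49-fold lower (interval 1.17 to 1.91). Its log2 fold change was -0.42 as deposited and -0.11 after subtracting the all-gene median. Rab27b is not among the listed genes. Rab3a, best known from synaptic vesicles, was at 2.84 and 4.55 FPKM, 1.60-fold higher (interval 1.21 to 2.14), and Rab3d, of secretory granules, at 9.39 and 7.50 FPKM. Rab13, which acts at cell junctions, was at 6.43 and 8.58 FPKM. Rab37, linked to granule release, lay under the limit at 0.541 and 0.353 FPKM. The median of the 7 above the limit was -0.29.

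ER and Golgi members held abundant genes within 1.5-fold of their WT level beside scarce genes that were mostly lower. Of the 10 above the limit 6 were lower in the knockout, where 68.2% of all genes were. All genes averaging 1 to 10 FPKM had a median log2 fold change of -0.38, so lower scarce genes are not particular to this compartment. Rab1a, which moves cargo from the ER to the Golgi, was at 106 FPKM (WT) and 90.7 FPKM (knockout), and Rab1b at 68.8 and 51.9 FPKM. Rab2a, of the path back to the ER, was at 74.8 and 76.9 FPKM. Rab18, found on lipid droplets and the ER, was at 68.8 and 72.9 FPKM, and Rab6a, of transport within and out of the Golgi, at 24.3 and 26.0 FPKM. For Rab2a and Rab6a the interval of the ratio includes 1, and Rab18 had none. Besides Rab43 and Rab33b, the scarce genes above the limit that were lower were Rab19, a Golgi RAB at 3.80 and 1.54 FPKM (2.47-fold, interval 1.62 to 3.92), and Rab2b at 3.05 and 1.49 FPKM (2.05-fold, interval 1.55 to 2.71). Both are under 2-fold with the pseudocount, and 59.3% of the exon length of Rab2b is overlapped by Gm43766 on the opposite strand. Rab6b went the other way, at 2.02 and 3.15 FPKM. Rab39 was at 0.568 FPKM in WT and is listed at 0 in the knockout, and no fold is given.

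The 2 measured RABs of lysosome-related organelles were both lower, where 68.2% of all genes were lower. Rab32, which acts at mitochondria, melanosomes and phagosomes, was at 36.8 FPKM (WT) and 18.8 FPKM (knockout), 1.96-fold lower (interval 1.77 to 2.17). Rab29, which recruits the kinase LRRK2, was at 19.9 and 11.1 FPKM, 1.79-fold lower (interval 1.51 to 2.13). Rab38, the close relative of Rab32, lay under the limit at 0.554 and 0.405 FPKM. Of the rest, Rab28, a RAB of cilia and photoreceptors, was at 7.44 and 3.80 FPKM, 1.96-fold lower (interval 1.66 to 2.31), and Rab40c, part of a ubiquitin ligase, at 6.61 and 7.01 FPKM. Rab23, a cilium RAB, was at 0.556 and 0.0854 FPKM, Rab40b at 0.191 and 0.825 FPKM and Rab42 at 0.365 and 0.607 FPKM, all under the limit.

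**Figure D4:**
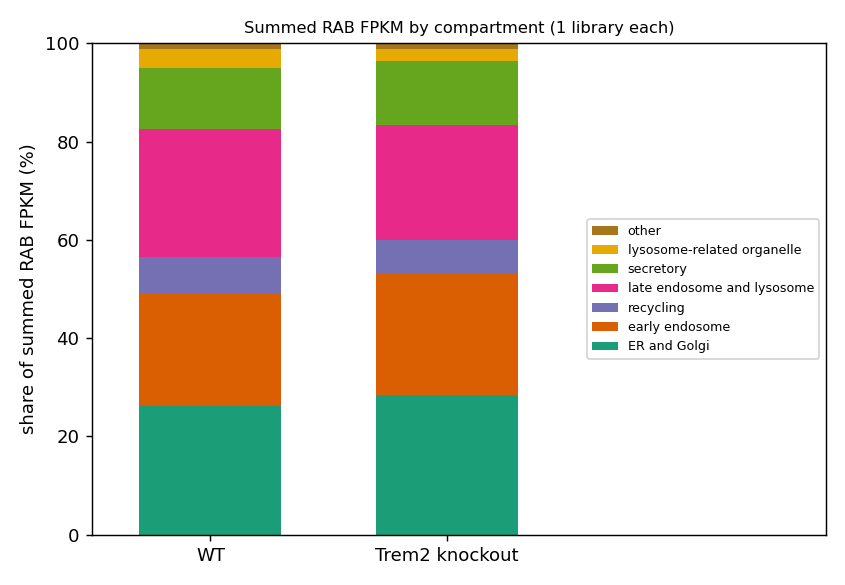
Share of the summed RAB FPKM by compartment in the WT and the knockout library, stacked to 100%. Late endosomal members made up 25.9% in WT and 23.3% in the knockout, early endosomal members 22.9% and 24.97%, recycling members 7.498% and 6.72%, secretory members 12.4% and 13.0%, and ER and Golgi members 26.2% and 28.3%.

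Summed by compartment the makeup of RAB expression was similar, as the stacked plot of shares shows. The late endosomal share went from 25.9% to 23.3%, with Rab7 alone going from 15.2% to 10.1% of all RAB FPKM and Rab9 from 2.65% to 6.25%. The share of lysosome-related organelle members went from 4.04% to 2.62%. The 4 compartment medians compared, -0.32 for early endosomal, -0.20 for recycling, -0.45 for late endosomal and -0.29 for secretory members, are medians of 6 or 7 genes, and log2 fold changes inside these compartments ranged over 0.98 (early endosomal) to 2.11 (recycling). Whether compartments differ was not tested, since the genes of a compartment are not replicates and each genotype has 1 library.

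Position in the genome was compared with the differences. Rab7b (chr1:131688695-131715439) and Rab29 (chr1:131867224-131872887) lie on mm10 chromosome 1, both on the + strand, and were 1.78-fold and 1.79-fold lower. Rab43 (chr6:87788853-87812164) and Rab7 (chr6:87999106-88045270) lie close together on chromosome 6, both on the - strand, and were 5.64-fold and 1.83-fold lower. Isy1, another gene of chromosome 6, was at 4.87 and 5.70 FPKM, higher in the knockout. Such pairs were picked after their values were seen and carry no test. The longest exact stretch shared by paralogs, among 14 pairs of longest transcripts, was 38 bases between Rab1a and Rab1b, followed by 35 between Rab5a and Rab5b.

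The machinery that loads and removes RABs was read from lists of its members, with 13.7% of all genes at least 2-fold lower and 3.48% at least 2-fold higher as the background for each. Genes of prenylation and extraction, which attach the lipid anchor and chaperone the GDP form, had 9 measured members, of which 1 was at least 2-fold lower (11.1%, against 13.7% of all genes) and 0 higher, with a median of 0.11. Rabggta, the alpha subunit of the RAB prenyl transferase, was at 6.75 FPKM (WT) and 2.81 FPKM (knockout), and Rabggtb, its beta subunit, at 30.1 and 50.7 FPKM. The subunits of 1 enzyme thus lay on opposite sides, 2.40-fold lower and 1.68-fold higher. Praf2, a membrane protein that binds RABs, was at 20.98 and 35.2 FPKM, and Chm, the escort protein for prenylation, at 4.34 and 2.29 FPKM.

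Of 40 measured exchange factors and TRAPP subunits, which load GTP, 4 were at least 2-fold lower (against 13.7% of all genes) and 0 higher, with a median of -0.40. Rin2, an exchange factor for Rab5, was at 22.2 and 4.66 FPKM. Rab3il1, which acts on Rab8, was at 15.6 and 3.36 FPKM. Dennd1c, of the family that activates Rab35, was at 6.49 and 1.54 FPKM, and Dennd4b, of the family that activates Rab10, at 6.91 and 2.25 FPKM. Of 29 GTPase-activating proteins, which switch RABs off, 3 were lower (10.3%, against 13.7% of all genes) and 1 higher (3.45%, against 3.48%), with a median of -0.47. Tbc1d10a, known to act on Rab35, was the higher one, at 6.26 FPKM (WT) and 24.8 FPKM (knockout), 3.97-fold higher (interval 3.43 to 4.62). Tbc1d13, also described for Rab35, was at 15.4 and 5.73 FPKM, Evi5, which acts on Rab11, at 8.33 and 2.55 FPKM, and Sgsm3 at 2.75 and 0.876 FPKM.

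Of 49 measured effectors and tethers 6 were at least 2-fold lower (12.2%, near the 13.7% of all genes) and 0 higher, with a median of -0.34. Rufy1, an effector of Rab4 and Rab14 on early endosomes, was at 24.8 and 4.92 FPKM, 5.03-fold lower. Vps33a, a core subunit of the HOPS tether that works with Rab7, was at 14.0 and 2.93 FPKM, Rilp, which links Rab7 to dynein, at 3.01 and 0.848 FPKM, and the Golgi tether Gcc1 at 7.40 and 2.46 FPKM. The exocyst, which tethers secretory vesicles, had 1 of 9 subunits at least 2-fold lower (11.1%, against 13.7% of all genes) and a median of -0.63, where the median of all genes was -0.31. Exoc8 was at 5.19 FPKM (WT) and 0.491 FPKM (knockout), 10.6-fold lower, and Exoc7, Exoc3 and Exoc1 were 1.95-fold, 1.81-fold and 1.89-fold lower. In all 8 of the 9 subunits were lower, where 68.2% of all genes were, and 1 was higher. Of 22 fusion proteins of the SNARE system 3 were lower (13.6%, against 13.7% of all genes) and 0 higher, with a median of -0.45. They were Stx2 (8.43 and 2.71 FPKM), Stx16 (9.48 and 3.91 FPKM) and Vamp8 (57.2 and 27.4 FPKM), and the next was Ykt6 (37.6 and 20.7 FPKM).

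2 other branches of the RAS superfamily were set beside the RABs. ARF and ARL genes, which also act on membranes, had 3 of 26 at least 2-fold lower (11.5%, against 13.7% of all genes) and 0 higher, with a median of -0.09, and their summed level was 892 FPKM (WT) and 947 FPKM (knockout). RAS, RAP and related genes had 4 of 21 lower (19.0%, against 13.7% of all genes) and 2 higher (9.52%, against 3.48%), with a median of -0.53, among them Rras (40.2 and 98.1 FPKM) and Rap2b (41.0 and 14.5 FPKM). The RAB median of -0.31 lay between the medians of these 2 branches.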

How the data were processed

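Libraries from 2 cultures of mouse abdominal cavity macrophages marked the second strand with dUTP and were read by Illumina sequencing, per the labels' protocols. The authors deposited FPKM of protein-coding genes, per the file headers, and the submitters' processing notes name mm10. Aligner, quantifier, annotation and use of strand: not given in the sources used here. Each listed gene reached 0.501 FPKM in at least 1 library. Groups were taken from sample titles.

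Exon lengths came from GENCODE release M21, where 9914 of 11349 IDs, and 40 of the 47 RAB genes, matched by version and position. Depth was estimated from single-transcript genes. The product of FPKM and length was a whole number of steps (tolerance 0.1) for 65.4% of 52 low values in WT and 68.8% of 77 in the knockout, against 20.0% by chance, and 1200 steps were taken as 1 fragment because low values piled up just under 1200 and its double (2 of 5 values up to 2 fragments in WT, 8 of 15 in the knockout). Fragments were used only for the depths and intervals given, which rest on this choice from few low values.

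Genes averaging at least 1 FPKM were compared by log2 fold change with a pseudocount of 1 FPKM and counted at 2-fold. No test was possible. All members are named with both values, and from each other list up to 4 genes with the largest absolute fold change. Marker genes are given as sums, with some named singly. The result of 1 gene list is not reported here. The RAB genes and all lists were chosen with earlier results of these data known, and compartments are textbook assignments. Alternatives were pseudocounts, filters, scalings, thresholds and means, and, added after seeing the data, a lowess correction for GC and length. The fold rule and the counting interval were tried on simulated fragments that held counting error only, which cannot show how replicate libraries would vary. The work used scipy 1.17.1, matplotlib 3.10.9, statsmodels 0.14.6, pandas 2.3.3, numpy 2.4.6 and Python 3.11.15.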

Additional observations from a re-analysis of the deposited data

How the results depend on the processing

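No paired analysis was possible because the design holds 1 library per genotype. Rab43 and Rab35 were past 2-fold in each of the 7 alternatives run for single genes. Rab33b was not with a pseudocount of 5 FPKM, at -0.97. Of the 37 members within 2-fold, 33 stayed within, and the others were Rab19, Rab32, Rab7 and Rab9. With the same summed FPKM Rab19 was at -1.01, Rab32 at -1.09 and Rab7 at -1.03. Rab19 was also at -1.25 with a pseudocount of 0.1 FPKM, and Rab9 at 1.25 with either of the other scalings. The count of RAB genes at least 2-fold higher, 0 as reported, was 1 with the median of ratios set to 1, 1 when the trimmed mean log ratio was zeroed, and 2 at a threshold of 1.5-fold, where 7.46%, 7.54% and 9.99% of all genes were higher. The count lower, 3 as reported, was 6 after rescaling to the same summed FPKM, 13 at 1.5-fold and 0 at 4-fold, where all genes gave 18.1%, 32.7% and 1.13%. With the same summed FPKM the medians were -0.47 for early and -0.60 for late endosomal members, against -0.43 for all genes. With the median of ratios set to 1 they were -0.0089 for all RAB genes, -0.035 for early endosomal, 0.10 for recycling, -0.14 for late endosomal and -0.0022 for secretory members, against -0.043 for all genes. With the trimmed mean they were -0.0065, -0.032, 0.10, -0.13 and 0.00013, against -0.04 for all genes. These scalings move every gene by the same factor of the knockout column. The mean of late endosomal members was -0.23. With GC and length trends removed, 4 RAB genes were lower, against 13.7% of all genes, and the RAB median was -0.26, against -0.31. What limits the text is 1 library per genotype, and depth for members under 5 FPKM, where intervals of the ratio are wide. The scaling between libraries limits it too, since the direction of 13 of the 40 members depends on it. Further limits are the exons that Rab43 and Rab4b share with other genes, and markers of other cells that moved between the libraries.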
